A study of Mus musculus with 16 samples.

Results

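The PI3K, Akt and Gsk3 kinases form a relay that carries growth factor signals from the cell surface to metabolism, translation and the cell cycle. Of this relay, the genes Pik3ca, Pdpk1, Akt1, Akt2, Mtor, Rictor, Gsk3a and Gsk3b were followed in the colon of mouse pups at weaning. They were found by gene name among the probes of the array, and they are 8 of the 36711 genes with a value. All 8 had at least 1 probe well above background on all 16 arrays.

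The pups were outbred RjOrl:SWISS mice. C-section-delivered (CSD) pups were taken by hysterectomy shortly before term and fostered by mothers that had delivered vaginally, and vaginally delivered (VD) litters were exchanged between mothers as well, so that fostering was common to both groups. There were 8 CSD pups from mothers 3 and 4, with 4 pups each (2 females and 2 males), and 8 VD pups, 5 from mother 5 (2 females and 3 males) and 3 males from mother 6. Each pup's whole colon RNA was hybridised to 1 one-colour Agilent array, on 2 slides that each held 4 CSD and 4 VD pups. No pup received a treatment or carried a genetic change according to the labels. With 2 litters per delivery mode, a difference between delivery modes and one between these mothers are hard to separate, and precision is limited by how few litters there were.

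In textbook outline, an activated receptor recruits PI3K, whose catalytic subunit (Pik3ca encodes p110α) makes the membrane lipid PIP3. PIP3 brings together the kinase Pdpk1 (PDK1) and its substrate Akt, and Pdpk1 phosphorylates Akt in its activation loop while mTOR complex 2, which needs Rictor, phosphorylates Akt near its end. Active Akt phosphorylates and thereby restrains both Gsk3 kinases, Gsk3a and Gsk3b, which otherwise mark β-catenin, Myc and other proteins for degradation and inhibit glycogen synthase. In the intestine this relay is known for its part in crypt cell growth and renewal. The arrays measured RNA, so none of the values below is a measure of kinase protein or of phosphorylation. In whole tissue, fewer cells of a type and less RNA per cell cannot be told apart.

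The array reads each gene through short probes, and the probes that carried the results are shown here so that the measured stretch of RNA can be seen. Both Gsk3a probes lie next to each other on chromosome 7 of mm9, on the minus strand, and all positions below are those of mm9. Pdpk1 also lies on the minus strand. The Gsk3a probe nearer the end of the transcript holds the hexamer AATAAA, the usual signal for the addition of the poly(A) tail, in capitals. The first 30 bases are given where a probe lacks the hexamer and 30 bases around it where a probe has it.
Gsk3a, chr7:26013436-26013495: atagattgttataattttttcttaaagaaa
Gsk3a, chr7:26013279-26013338: agacctctgttcAATAAAttattggcatga
Pdpk1, chr17:24216460-24216519: cccatggtcacaagaactccgaccagaagc
Pdpk1, chr17:24210650-24210709: cggtagtcttgtAATAAAagcatgtagagt
AATAAA stood in 8 of the 23 probes of the 8 genes and in 9.78% of all 56366 probes with a value. The word was searched on the strand of the probe only, and its presence says nothing about how a transcript was processed.

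Of the 8 genes, 2 passed the test between CSD and VD pups, Gsk3a and Pdpk1, in opposite directions. Gsk3a fell in CSD pups and was 1.13-fold lower, and Pdpk1 rose and was 1.12-fold higher. Among all genes 1.25% passed the same test (limma, fixed terms for delivery mode and sex, a random term for mother, and an adjusted p under 0.05 by Benjamini-Hochberg). At an unadjusted p under 0.05, 3 of the 8 genes passed, Pik3ca being the other one, against 14.5% of all genes. The median difference of the 8 genes was 0.02 on the log2 scale, and that of all genes was 0.0029.

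**Figure D1:**
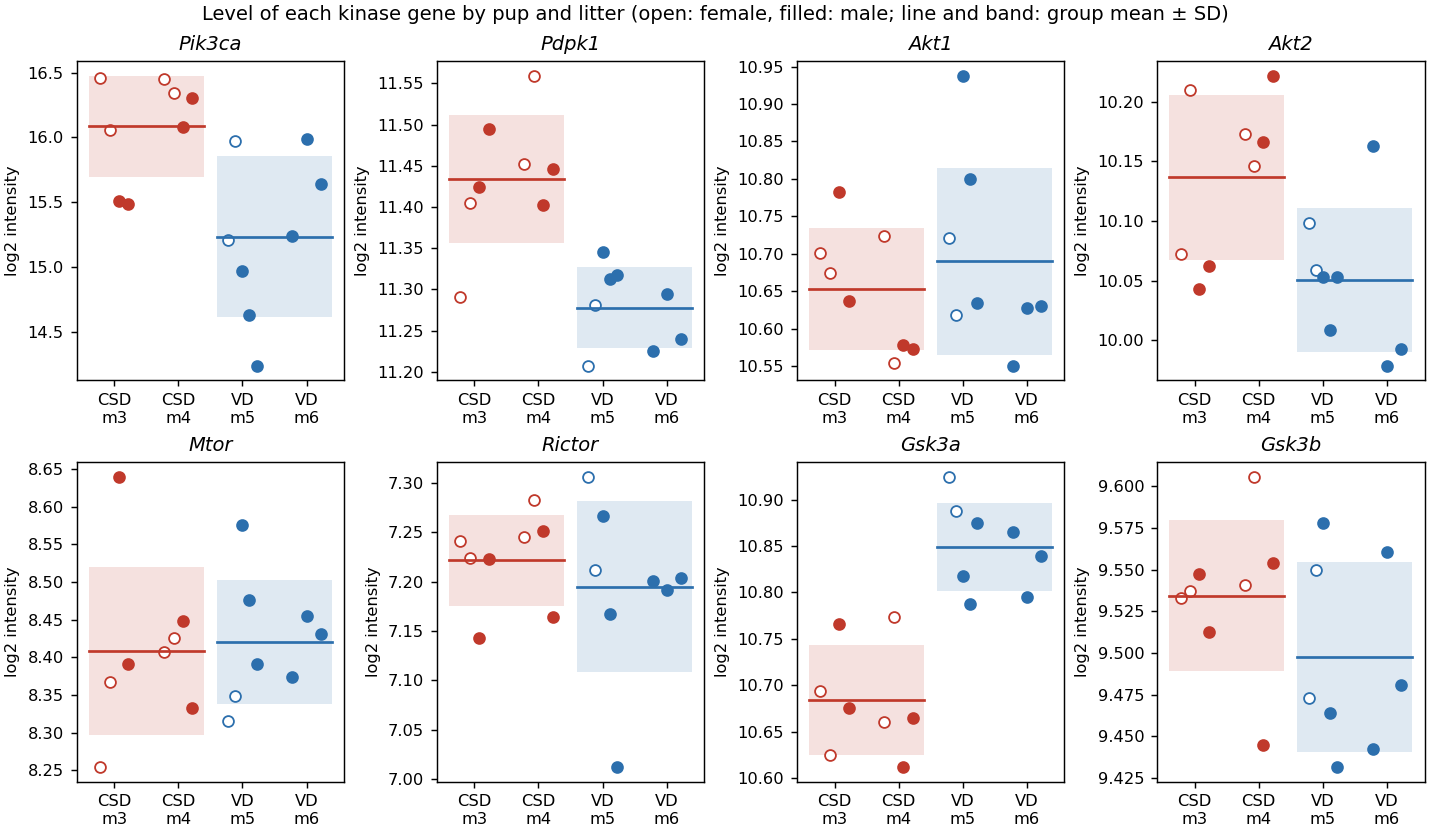
Log2 intensity of each kinase gene (y axis) in the 16 pups, set out by delivery mode and mother (x axis, m3 to m6); open points are females, filled points males, and the line and band are the group mean ± SD over 8 pups. The y axes differ between panels. All 8 CSD pups lie below all 8 VD pups for Gsk3a, and 7 of 8 CSD pups lie above all VD pups for Pdpk1.

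Gsk3a encodes GSK-3α, the larger of the GSK-3 pair. Its log2 intensity ran from 10.61 through a median of 10.67 to 10.77 in CSD pups, and from 10.79 through a median of 10.85 to 10.92 in VD pups. The groups did not overlap, which held for 0.493% of the 36493 genes with a value in all pups. The fitted log2 difference was -0.17 (standard error 0.03, 95% interval -0.24 to -0.11, adjusted p = 0.0195, limma), a level 1.13-fold lower in CSD pups. The exact permutation test, two-sided, gave p = 0.0001554 for the group means (n = 8 per group), the smallest p that 12870 assignments can give, without regard to litter or sex. The means of the litters were 10.69 for mother 3 and 10.68 for mother 4 against 10.86 for mother 5 and 10.83 for mother 6, so that the litters of one delivery mode lay closer to each other than to either litter of the other mode.

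Both Gsk3a probes were called on their own, against 1.74% of all probes. The probe with AATAAA, at 26013279, had a CSD mean of 13.01 ± 0.06 and a VD mean of 13.17 ± 0.05 (SD, n = 8 each), a log2 difference of -0.16 (adjusted p = 0.0311, limma). The other probe, at 26013436, had a CSD mean of 8.36 ± 0.09 and a VD mean of 8.53 ± 0.08 (SD, n = 8 each), a log2 difference of -0.19 (adjusted p = 0.0351, limma). Taken probe by probe the groups overlapped. At the first probe the highest CSD pup reached 13.14 while the lowest VD pup had 13.08, and at the other the highest CSD pup reached 8.54, above the VD mean, while the lowest VD pup had 8.37. Without VD pup 4, the highest of the VD pups, the difference in Gsk3a was -0.16 with an adjusted p of 0.0597, and it passed in the other 15 fits that left out 1 pup. Over litter means Gsk3a fell short (adjusted p = 0.328, limma). It also fell short without the litter of mother 4 (0.105) or mother 5 (0.220), and passed without that of mother 3 (0.0347) or mother 6 (0.00896). Within slide 1 the log2 difference of Gsk3a was -0.13 and within slide 2 it was -0.22 (adjusted p = 0.478 and 0.219, limma, 8 arrays each).

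Gsk3b encodes GSK-3β, whose kinase domain is closely related and whose substrates largely overlap. Its log2 intensity ran from 9.44 to 9.61 in CSD pups and from 9.43 to 9.58 in VD pups, so that the groups overlapped over nearly their whole range. The fitted log2 difference was 0.03 (standard error 0.03, 95% interval -0.04 to 0.10, adjusted p = 0.741, limma). The interval lies wholly above that of Gsk3a. Within each pup, log2 Gsk3a minus log2 Gsk3b ran from 1.09 to 1.22 in CSD and from 1.23 to 1.45 in VD pups, a difference of -0.20 between the group means with no overlap. Gsk3a alone had no overlap either, so this is not a result apart from that of Gsk3a. How often other pairs of genes show no overlap was not computed.

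The 4 Gsk3b probes read different parts of the transcript. One of them crosses an intron, since its 60 bases span 3646 bases of the genome, and it is shown whole because it reads spliced RNA (plus strand).
Gsk3b, chr16:38187987-38191632: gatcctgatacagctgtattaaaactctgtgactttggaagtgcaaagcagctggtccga
This probe had a log2 difference of -0.06 (adjusted p = 0.696, limma). The probe at 38241177 had a CSD mean of 12.97 ± 0.07 and a VD mean of 12.86 ± 0.08 (SD, n = 8 each), a log2 difference of 0.10 (adjusted p = 0.281, limma). None of the 4 was called.

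Pdpk1 encodes PDK1, the kinase that switches on Akt and a wider set of related kinases. Its log2 intensity ran from 11.29 through a median of 11.44 to 11.56 in CSD pups and from 11.21 through 11.29 to 11.35 in VD pups. Of the 8 CSD pups 7 exceeded all VD pups, the exception being female CSD pup 3 of mother 3. The fitted log2 difference was 0.16 (standard error 0.04, 95% interval 0.08 to 0.24, adjusted p = 0.0460, limma), a level 1.12-fold higher in CSD pups. The exact permutation test, two-sided, gave p = 0.000777 (n = 8 per group), and the litter means were 11.40 and 11.46 in CSD against 11.29 and 11.25 in VD pups.

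Both Pdpk1 probes pointed upwards in CSD pups, and neither was called on its own. The AATAAA probe had a CSD mean of 12.38 ± 0.10 and a VD mean of 12.23 ± 0.07 (SD, n = 8 each), a log2 difference of 0.17 (adjusted p = 0.0576, limma). The other probe had a CSD mean of 10.49 ± 0.11 and a VD mean of 10.33 ± 0.06 (SD, n = 8 each), a log2 difference of 0.16 (adjusted p = 0.109, limma). The call of Pdpk1 lay close to its threshold. It passed in 3 of the 16 fits that left out 1 pup, with adjusted p between 0.0321 and 0.137 over the 16 fits, while its log2 difference stayed between 0.15 and 0.18. Within slide 1 the log2 difference of Pdpk1 was 0.11 and within slide 2 it was 0.22 (adjusted p = 0.545 and 0.268, limma, 8 arrays each). Of all 38 alternative settings, Pdpk1 passed in 8 and Gsk3a in 28, and neither changed direction in any of them.

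**Figure D2:**
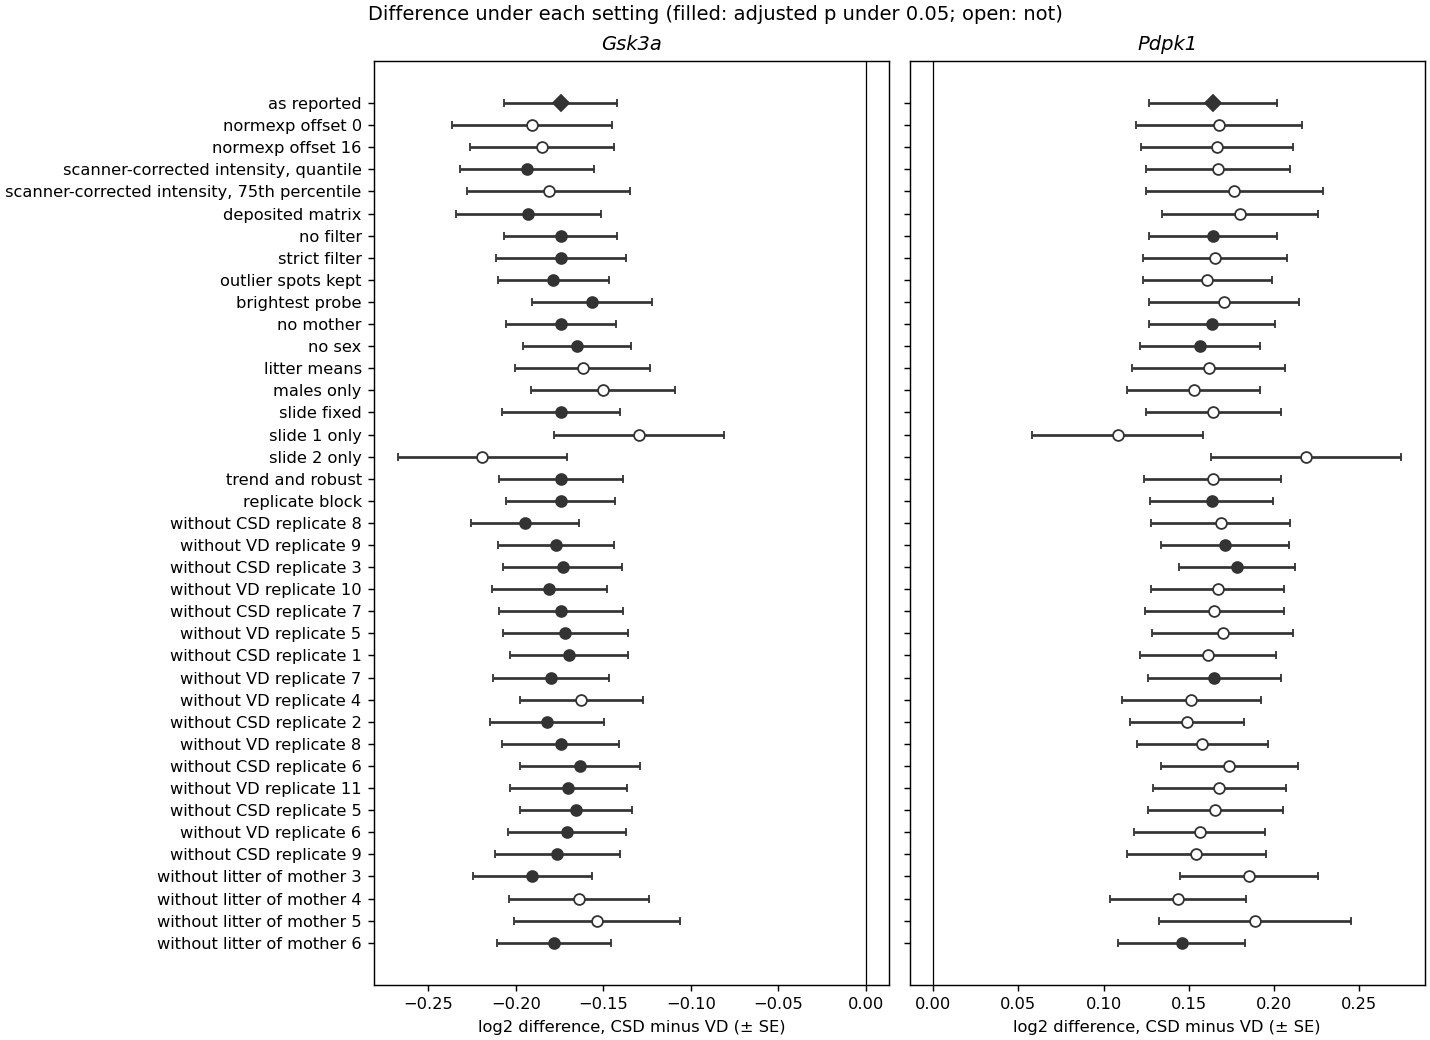
Log2 difference between CSD and VD pups (x axis, ± standard error) of Gsk3a and Pdpk1 under the reported setting and 38 alternatives (y axis); filled symbols have an adjusted p under 0.05. Gsk3a stays between -0.22 and -0.13 and Pdpk1 between 0.11 and 0.22.

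Pik3ca had the largest difference of the 8 genes and did not pass the test over all genes. The log2 intensity of its single probe ran from 15.48 through a median of 16.19 to 16.45 in CSD pups and from 14.23 through 15.22 to 15.98 in VD pups. Of the 8 CSD pups 6 lay above all VD pups, and the others, males 8 and 9 of mother 3, lay among them. The fitted log2 difference was 0.72 (standard error 0.23, 95% interval 0.23 to 1.21, adjusted p = 0.139, limma). The spread within a group was several times that of Gsk3a, the SD being 0.39 for CSD pups and 0.62 for VD pups.

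Litters moved this value more than for the other 7 genes. The litter means were 15.87 and 16.29 in CSD and 15.001 and 15.62 in VD pups. Between the VD litters the difference was 0.89 (mother 6 minus mother 5, with a term for sex, adjusted p = 0.107, limma), and with the slide as a term it was 0.99 (adjusted p = 0.0323, limma). Without the litter of mother 6 the difference between CSD and VD pups was 1.02 with an adjusted p of 0.00607, and without the litter of mother 5 it was 0.22 with an adjusted p of 0.722.

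The Pik3ca probe holds a run of AAG repeats near its start, and so do many probes for other genes that moved together with it. The comparison of repeat-bearing probes was chosen after the values were seen. The probe is shown beside those of AI596374 and B020031M17Rik, the genes with the pattern most like it over the 16 pups (Pearson r = 0.994 for each). Capitals mark the AAG run, counted on the strand of the probe from at least 3 repeats in a row, which the AI596374 probe does not reach.
Pik3ca, chr3:32364747-32364806: agaAAGAAGAAGAAGAAtggaatctggttg
B020031M17Rik: tggccagAAGAAGAAGAAGAAGtgagaaag
AI596374: agaagaagatcattgttcaaaccaggcaga
Of the 33 other probes with at least 4 AAG repeats in a row and a value in all pups, 31 had a correlation above 0.9 with the Pik3ca probe, and the median correlation was 0.973. They belong to 32 gene names. Of the 93 probes with 3 but not 4 AAG repeats in a row, 35 had such a correlation (37.6%), with a median of 0.809, and 2 were called. Among the 55804 probes without 3 repeats in a row, 44 had such a correlation (0.0788%). All 33 were higher in CSD pups, by a median log2 difference of 0.47, and 0 were called while 29 had an unadjusted p under 0.05 (limma). Of the 55930 probes other than that of Pik3ca, 28910 were higher in CSD pups and 8475 had an unadjusted p under 0.05. The mean of the 33 probes was 16.19 ± 0.32 in CSD and 15.52 ± 0.53 in VD pups (log2, SD, n = 8 each). This mean per pup followed the Pik3ca probe with r = 0.990 over 16 pups, a description over arrays that share their processing. Only 1 of the 23 probes of the 8 genes holds such a run. Whether the signal of the Pik3ca probe comes from Pik3ca transcripts was not tested, and its values are those of the probe.

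**Figure D3:**
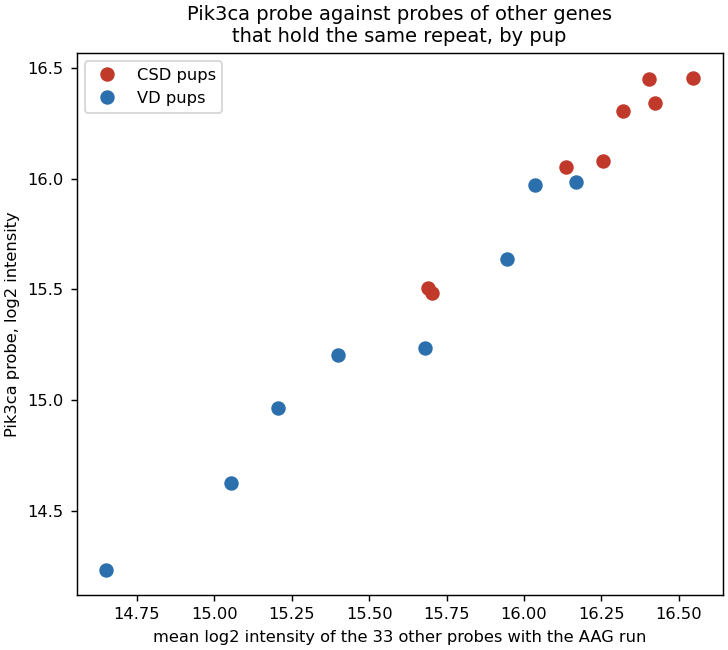
Log2 intensity of the Pik3ca probe (y axis) against the mean log2 intensity of 33 probes of other genes with the same AAG run (x axis), 1 point per pup, red for CSD and blue for VD. The points lie close to a line (r = 0.990), with the VD pups reaching down to 14.23 for Pik3ca.

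Akt1 and Akt2 encode the most widely expressed Akt kinases, and neither passed the test. Akt1 ran from 10.55 to 10.78 in CSD and from 10.55 to 10.94 in VD pups, with a fitted log2 difference of -0.04 (standard error 0.06, 95% interval -0.16 to 0.08, adjusted p = 0.834, limma). The highest VD values belonged to males 9 and 10 of mother 5. The probe of Akt1 with the strongest signal had a CSD mean of 13.94 ± 0.04 and a VD mean of 14.04 ± 0.08 (SD, n = 8 each), a log2 difference of -0.10 (adjusted p = 0.216, limma), while the other 2 probes differed by -0.01 and 0.0032.

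Akt2 ran from 10.04 through a median of 10.16 to 10.22 in CSD and from 9.98 through 10.05 to 10.16 in VD pups. Above all VD pups lay 4 CSD pups, and 3 of these came from mother 4. The fitted log2 difference was 0.08 (standard error 0.04, 95% interval -0.0011 to 0.16, adjusted p = 0.354, limma). Its 3 probes did not move alike, and they are shown because the value of the gene is their mean.
Akt2, chr7:28418226-28418285: gtatgccttccagacccatgaccgcctatg
Akt2, chr7:28421973-28422113: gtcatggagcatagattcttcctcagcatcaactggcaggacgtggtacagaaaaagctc
Akt2, chr7:28424405-28424464: tacggtacaagcAATAAAgacactcatttc
The middle probe crosses an intron (60 bases over 141 of the genome) and had a CSD mean of 9.09 ± 0.13 and a VD mean of 8.86 ± 0.11 (SD, n = 8 each), a log2 difference of 0.20 (adjusted p = 0.0721, limma). The first probe differed by 0.09 (adjusted p = 0.303, limma). The AATAAA probe, which had the highest signal of the 3, had a CSD mean of 12.22 ± 0.11 and a VD mean of 12.30 ± 0.06 (SD, n = 8 each) and a log2 difference of -0.06 (adjusted p = 0.625, limma). With the probe of highest signal alone, Akt2 therefore had the opposite sign.

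Mtor, the kinase of both mTOR complexes, ran from 8.25 to 8.64 in CSD and from 8.31 to 8.58 in VD pups. Its fitted log2 difference was 0.01 (standard error 0.05, 95% interval -0.09 to 0.11, adjusted p = 0.929, limma), while the difference of the plain group means was -0.01, the sign depending on the term for sex. Rictor, the scaffold that defines mTOR complex 2, ran from 7.14 to 7.28 in CSD and from 7.01 to 7.31 in VD pups, with a fitted log2 difference of 0.0098 (standard error 0.04, 95% interval -0.07 to 0.09, adjusted p = 0.937, limma). Of its 6 probes 3 were higher and 3 lower in CSD pups, by at most 0.10 on the log2 scale. For both genes the groups overlapped, and neither interval reached the differences fitted for Gsk3a and Pdpk1.

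**Figure D4:**
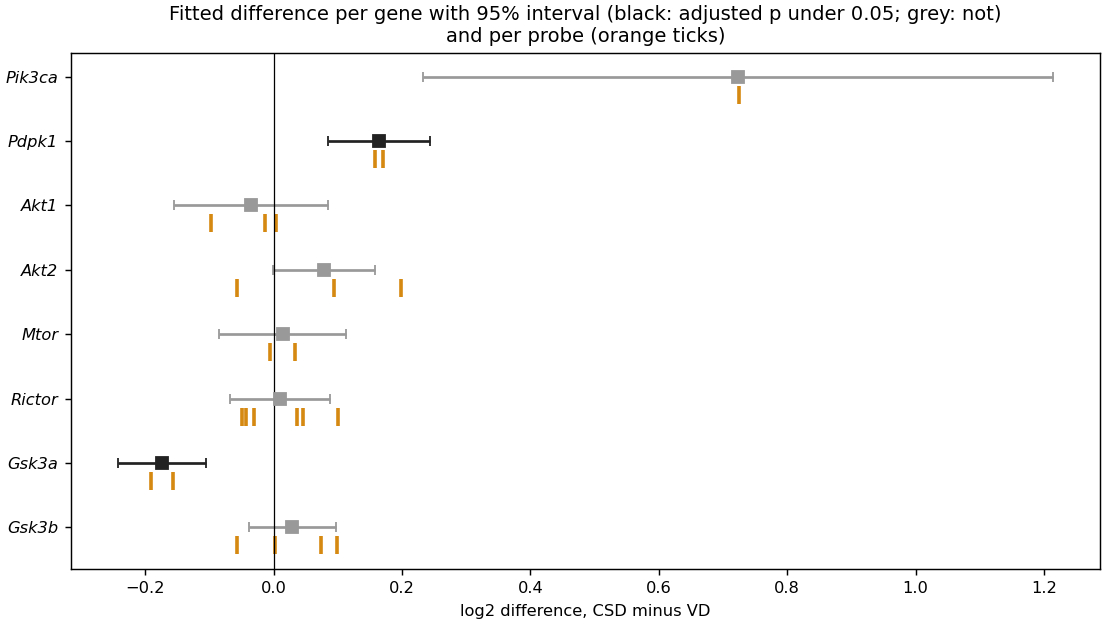
Fitted log2 difference between CSD and VD pups (x axis) of each kinase gene (y axis) with its 95% interval, black where the adjusted p was under 0.05 and grey otherwise; orange ticks are the differences of single probes. The intervals of Gsk3a (-0.24 to -0.11) and Pdpk1 (0.08 to 0.24) lie on opposite sides of 0, and the Akt2 ticks lie on both sides.

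The sex of the pups moved none of the 8 genes past the threshold. In the same fit 0 of 8 genes were called between males and females (limma), against 0.0599% of all genes, and 1 had an unadjusted p under 0.05. That gene was Mtor, higher in males by 0.10 on the log2 scale (standard error 0.05, adjusted p = 0.767, limma). Pik3ca was lower in males by a log2 difference of -0.49 (standard error 0.23, adjusted p = 0.776, limma). The effect of delivery mode did not differ detectably between the sexes for any of the 8 genes (0 called and 0 with an unadjusted p under 0.05, limma), against 0.00272% of all genes called, and with 2 VD females this test has little reach. Gsk3a means were 10.69 and 10.68 in CSD females and males and 10.91 and 10.83 in VD females and males.

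Litters of one delivery mode were also compared with each other. Between mothers 4 and 3, 0 of the 8 genes were called (limma; 0 with an unadjusted p under 0.05), against 0.0872% of all genes. Between mothers 6 and 5, 0 of the 8 were called (limma; 1 with an unadjusted p under 0.05, Pik3ca), against 0.874% of all genes. For Gsk3a these litter differences were -0.01 and -0.01, and for Pdpk1 they were 0.06 and -0.06 (log2, adjusted for sex), each smaller than the difference between delivery modes.

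The other genes of the relay were read from 10 lists by role, 99 genes without the 8 kinases. CSD pups had higher values in 60 and lower values in 39 of them, against 18985 higher and 17726 lower of all genes. The median log2 difference was 0.02, and 2 genes were called, both higher, against 1.25% of all genes. At an unadjusted p under 0.05 there were 18, of which 12 were higher and 6 lower, against 14.5% of all genes. The 2 called genes were Hsp90aa1 and Myc. Hsp90aa1, the inducible HSP90 chaperone on which Akt and many other kinases depend for folding, had a CSD mean of 11.24 ± 0.19 and a VD mean of 10.77 ± 0.13 (SD, n = 8 each), a rise of 0.44 on the log2 scale (standard error 0.08, adjusted p = 0.0147, limma). With its probe of highest signal alone this was 0.82, from the deposited matrix 0.67 and with probes well above background on at least 8 arrays 0.67, and on slide 1 alone it was 0.32. Hsp90aa1 was not called with offset 0 (adjusted p = 0.0922, limma), from the scanner's corrected intensity (0.221 with quantile scaling and 0.169 with the 75th percentile), over litter means (0.236), in males (0.326), on slide 1 (0.458) or slide 2 (0.144) alone, without mother 4 (0.120) or without mother 5 (0.140). Myc, the growth-promoting transcription factor whose protein GSK-3 marks for degradation, rose by 0.33 on the log2 scale (standard error 0.04, adjusted p = 0.00254, limma), and its groups did not overlap. Myc was not called over litter means (adjusted p = 0.256, limma), in males (0.114), on slide 1 (0.250) or slide 2 (0.192) alone or without mother 5 (0.0587).

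**Figure D5:**
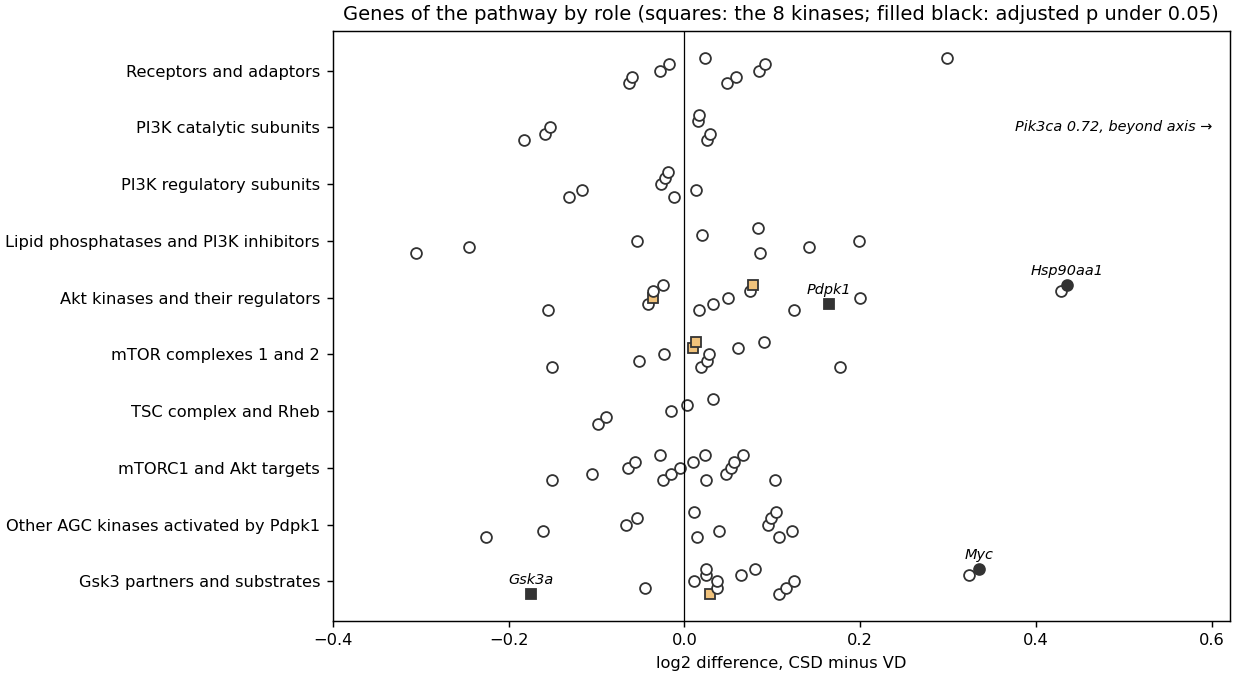
Log2 difference between CSD and VD pups (x axis) of the genes of 10 lists by role (y axis); squares are the 8 kinases, circles other genes, and black symbols have an adjusted p under 0.05. Pik3ca, at 0.72, lies beyond the axis. Gsk3a is the one black symbol to the left of 0, and 12 of 13 circles of the GSK-3 partners lie to the right of 0.

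The counts of the single lists stand against the same background over all genes, 1.25% called and 14.5% at an unadjusted p under 0.05, and with few genes in a list they are given as a description. Upstream of PI3K, 0 of 10 receptors and adaptors were called (limma), 6 were higher and 4 lower. The insulin receptor gene Insr differed by 0.09 (adjusted p = 0.200, limma) and the adaptor Irs2 by 0.30 (adjusted p = 0.384, limma). The 7 other catalytic subunits of PI3K were split 4 to 3, with 0 called and 0 at an unadjusted p under 0.05. Pik3c3, the class III enzyme of autophagy, differed by -0.15 and Pik3cd, the leukocyte isoform, by -0.16. Of 7 regulatory subunits and adaptors 6 were lower and 0 were called (limma), 1 having an unadjusted p under 0.05. That one was Pik3r6 with -0.12 (adjusted p = 0.164, limma), and Pik3ap1, an adaptor of B cells, differed by -0.13 (adjusted p = 0.386). Pik3ap1 was well above background on only 2 CSD and 4 VD arrays.

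The lipid phosphatases that oppose PI3K had 4 of 8 genes at an unadjusted p under 0.05, 2 in each direction, against 14.5% of all genes, and 0 called (limma). Inpp5e differed by -0.30 (adjusted p = 0.216, limma) and Inpp4b by 0.20 (adjusted p = 0.267). Among the 12 other genes of the Akt list 8 were higher, and besides Hsp90aa1 the smallest p was that of Phlpp2, a phosphatase of Akt, with 0.20 (adjusted p = 0.228, limma). Among 9 other genes of the mTOR complexes 0 were called (limma) and 1 had an unadjusted p under 0.05. This was Deptor, an inhibitor of both complexes, with a CSD mean of 9.74 ± 0.13 and a VD mean of 9.58 ± 0.05 (SD, n = 8 each) and a log2 difference of 0.18 (adjusted p = 0.103, limma). Prr5l, a partner of Rictor, differed by -0.15 (adjusted p = 0.417, limma).

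Of 5 genes of the TSC complex and Rheb 0 were called (limma) and 0 had an unadjusted p under 0.05, with -0.09 for Tbc1d7 and -0.10 for Rhebl1. Of 16 targets of Akt and mTORC1 8 were higher and 8 lower, 0 called and 0 at an unadjusted p under 0.05. These 16 genes ran from -0.15 for Eif4ebp1, a repressor of translation that mTORC1 switches off (adjusted p = 0.386, limma), to 0.10 for Chuk. The ribosomal protein gene Rps6 differed by 0.05 (adjusted p = 0.383, limma) and Chuk, which encodes the kinase IKKα, by 0.10 (adjusted p = 0.384).

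Pdpk1 also activates other kinases of the AGC family, and 12 of these were read, 8 higher and 4 lower, with 0 called (limma). At an unadjusted p under 0.05 there were 3, of which 1 was higher and 2 were lower. The higher one was Rps6ka3, which encodes RSK2 and differed by 0.10 (adjusted p = 0.112, limma). Among 13 partners and substrates of GSK-3 12 were higher in CSD pups, by a median of 0.06 on the log2 scale, and besides Myc none was called. Nfatc1, a transcription factor that GSK-3 sends out of the nucleus, had a CSD mean of 8.91 ± 0.16 and a VD mean of 8.61 ± 0.17 (SD, n = 8 each), a log2 difference of 0.32 (adjusted p = 0.0671, limma). The scaffold Axin1 differed by 0.08 and the β-catenin gene Ctnnb1 by 0.04, neither being called.

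The genes most like each kinase over the 16 pups, among 15674 genes whose probes were all well above background on all arrays, are given as a description. For Pdpk1 they were Ippk, an inositol phosphate kinase (Pearson r = 0.940, Spearman rho = 0.924), and Ap3b1, a subunit of the AP-3 adaptor (r = 0.895, rho = 0.871), and with the group means removed r was 0.839 and 0.729. For Gsk3a they were Ap2a1, a subunit of the AP-2 adaptor of endocytosis (r = 0.876, rho = 0.859), and Cracr2b (r = 0.869, rho = 0.847), with 0.673 and 0.744 within groups. For Gsk3b they were Braf (r = 0.850) and Gapvd1 (r = 0.844), for Akt1 Skiv2l (r = 0.853) and Atp9a (r = 0.838), and for Akt2 Rps3 (r = 0.871) and Glul (r = 0.849). For Mtor they were Fam207a (r = 0.861) and Tufm (r = 0.833), and for Rictor Dek (r = 0.796) and Gm4425 (r = 0.769). All points share their array and its normalization. Ippk and Ap3b1 were themselves called, with log2 differences of 0.20 (adjusted p = 0.0125, limma) and 0.28 (adjusted p = 0.0340, limma), against 1.25% of all genes. They were picked for likeness to Pdpk1 with the group difference included, so their calls are not separate from that of Pdpk1. Ap2a1 and Cracr2b, picked for likeness to Gsk3a, were not called (adjusted p = 0.0620 and 0.110, limma).

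The tissue label was held against genes of colonic epithelium and of tissues that could lie in the sample. Whether the genes of colonic epithelium tell colon from small intestine was not tested. All 8 markers of colonic epithelium were measured, Krt20 being the one of highest signal, whereas the small intestinal genes Sis, Lct and Apoa4 and the pancreatic genes Pnlip, Prss1 and Amy2b were well above background on no array. Of the same lists Fabp6, Fabp2, Mep1a and Slc5a1 of small intestine and Cela1 of pancreas were well above background on all 16 arrays, Cela1 with means of 14.58 in CSD and 14.61 in VD pups. No marker gene of the 12 lists was called (limma; 14 of 75 had an unadjusted p under 0.05, against 14.5% of all genes). Among the 75 marker genes 52 had a lower value after C-section and 23 a higher one. In several of the 12 lists all genes lay on the same side, higher for colonic epithelium and lower for B and plasma cells, T cells, macrophages, endothelium, fat and proliferation, and their part in the results for Gsk3a and Pdpk1 was not tested. Summed levels are the log2 of the summed intensities of a list, so that its genes of highest signal weigh most. All 8 genes of colonic epithelium were higher in CSD pups, with summed levels of 17.63 ± 0.15 in CSD and 17.52 ± 0.11 in VD pups (SD, n = 8 each, exact permutation p = 0.120). All 6 genes of B and plasma cells were lower, with summed levels of 14.31 ± 0.93 and 15.33 ± 0.46 (SD, n = 8 each, exact permutation p = 0.0148) and with Jchain as the one of highest signal. All 6 macrophage genes were lower, with 12.58 ± 0.22 and 12.80 ± 0.14 (SD, n = 8 each, exact permutation p = 0.0376) and with Csf1r as the one of highest signal. All 5 endothelial genes were lower, with 11.11 ± 0.13 and 11.28 ± 0.08 (SD, n = 8 each, exact permutation p = 0.0112) and with Emcn as the one of highest signal. The 8 small intestinal genes had summed levels of 14.26 ± 0.34 and 13.84 ± 0.28 (SD, n = 8 each, exact permutation p = 0.0197), carried by Mep1a and Fabp2, with 3 genes higher and 5 lower. Adjusted over the 12 lists by Benjamini-Hochberg these exact permutation p-values were 0.202 for colonic epithelium, 0.113 for macrophages and 0.0789 each for B and plasma cells, endothelium and small intestine, so that none passed. The permutation tests of the lists took no account of litter or sex.

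Within these lists the smallest p-values belonged to Cd79a of B cells, with a log2 difference of -0.48 (adjusted p = 0.0993, limma), to Slc26a3 of colonic epithelium with 0.45 (adjusted p = 0.113) and to C1qc of macrophages with -0.21 (adjusted p = 0.143). Fabp2 differed by 0.63 (adjusted p = 0.207, limma), Smtn of smooth muscle by -0.19 (adjusted p = 0.275) and Emcn by -0.16 (adjusted p = 0.280). The summed level of smooth muscle was 17.89 in CSD and 18.04 in VD pups, with Tagln as the one of highest signal, with 2 genes higher and 6 lower. All 5 genes of T cells were lower, with summed levels of 10.41 ± 0.27 and 10.77 ± 0.45 (SD, n = 8 each, exact permutation p = 0.0530, adjusted over the lists 0.127) and with Cd3d as the one of highest signal. All 6 genes of proliferation were lower, with summed levels of 13.70 ± 0.26 and 13.78 ± 0.15 (SD, n = 8 each, exact permutation p = 0.447, adjusted 0.488), a median log2 difference of -0.06 over the genes and Pcna as the one of highest signal. All 4 genes of fat were lower, with 13.51 ± 1.48 and 14.17 ± 0.88 (SD, n = 8 each, exact permutation p = 0.301, adjusted 0.362) and with Cfd as the one of highest signal. The lists of fibroblasts (Dcn the one of highest signal), enteric neurons and glia (Uchl1) and pancreas (Cela1) had exact permutation p between 0.0869 and 0.838 before adjustment.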

How the data were processed

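Colon RNA of 16 pups was measured on 1-colour Agilent arrays, with delivery mode, sex, mother and pup number as labelled and slides as the scanner recorded them. The authors deposited each array's scanner output, with each spot's mean and background-corrected intensity and other marks (saturation, outlier, clearly over background). Also deposited was a gene matrix in log2 units, which the authors made with limma 3.38 by correcting, quantile normalizing, filtering dim probes and averaging probes of a gene. It served as an alternative and had a correlation of 0.977 with the values computed here on each array. Names and positions of probes come from the scanner files (mm9), whose headers give another array design number than the study's methods, and no annotation of that build was used here.

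With limma 3.58.1 in R 4.3.3, intensities were corrected by normexp (offset 50), control and outlier spots left out, log2 values quantile normalized, probes kept that exceeded the lowest 5% of an array on 4 arrays or more (56366 of 56605) and probes of a gene averaged (36711 genes). Between 58.7% and 64.9% of the spots of an array were well above background and 0 were saturated. Since arrays give no counts, the number of pups and litters limits the precision. The fit had fixed terms for delivery mode and sex and a random term for mother (consensus correlation 0.015), as in the study's methods, and a gene was called where its p, adjusted over all genes by Benjamini-Hochberg, was under 0.05. Litters were compared with mother as fixed effect. Exact permutation tests of group means were two-sided, over all 12870 assignments, without regard to litter or sex. On simulated arrays of the same design with a litter effect the fit estimated too small a correlation within litters. A larger share of the calls of the fit on those arrays was false than the threshold allows.

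The members, the 10 lists of the relay, the 12 lists of cell markers and the tests were chosen with earlier results of these data known. The text names all 8 kinases, every called gene of the relay and the 2 smallest p-values of each of its lists, the gene of smallest p and the gene of highest signal of marker lists, and the 2 genes most correlated with each kinase. Some genes that this rule takes in are not reported here. The count of probes with AAG repeats, and Axin1 and Ctnnb1, were chosen after the values were seen. Alternatives were other corrections and scalings, filters, model terms, slides, and fits without each pup and each litter. Nothing says that pups are more than litter mates from 4 mothers, so p-values measure the spread between these pups.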

Additional observations from a re-analysis of the deposited data

Results flagged for a closer look

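A single level stood apart from its group among the 16 groups of 8 pups looked at, and chance alone flags about 5% of groups. Rictor had a log2 intensity of 7.01 in VD pup 11, a male of mother 5, the lowest of the 8 VD pups, and the gap to the next pup took up 0.527 of the range of the group. The same array had the lowest share of spots well above background, 58.7%. Without this pup the log2 difference of Rictor was -0.01 (adjusted p = 0.910, limma). The delivery by sex interaction set none of the 8 genes apart (limma; 0 with an unadjusted p under 0.05).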

How the results depend on the processing

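The 8 kinases gave 304 values under alternatives, of which 247 kept their direction and their side of the threshold, 40 kept only the direction, 1 passed where it had not, and 16 had the opposite sign. Gsk3a lay between -0.22 and -0.13 and passed in 28 of 38 settings, Pdpk1 between 0.11 and 0.22 and passed in 8. Both fell short with offsets 0 and 16, the corrected intensity scaled to the 75th percentile, litter means, males, either slide alone and without VD pup 4, mother 4 or mother 5. Pdpk1 also fell short with the corrected intensity after quantile scaling, the deposited matrix, the stricter filter, outlier spots kept, the probe of highest signal, the slide as a term, trend and robust variances, without mother 3 and without 12 other pups. Their direction did not change in any setting run. All opposite signs were values near 0. Akt2 and Rictor had -0.0571 and -0.0494 with the probe of highest signal alone. Mtor had -0.0048 with that probe, -0.0121 without the term for sex, -0.0119 over litter means, -0.0166 on slide 1, -0.0228 without CSD pup 8, -0.0023 without mother 3 and -0.0016 without mother 6. Rictor had -0.0239 on slide 1, -0.0028 without CSD pup 6, -0.0106 without VD pup 11, -0.0049 without mother 4 and -0.0031 without mother 5. Akt1 had 0.0149 without mother 4 and 0.0404 without mother 5. Without 1 pup, Mtor lay between -0.0228 and 0.0395 and Rictor between -0.0106 and 0.0251. The cause was not tested. Hsp90aa1 and Myc, added after seeing the data, kept their direction in all 38 settings and passed in 29 and 33.

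Of all genes 460 were called as reported, 102 with offset 0, 243 with offset 16, 177 and 169 from the scanner's corrected intensity (quantile, 75th percentile), 170 from the deposited matrix, 992 without sex, 12 on slide 1 and 0 each over litter means (4033 at an unadjusted p under 0.05), in males (3295) and on slide 2 (3790). Without the litters of mothers 3, 4, 5 and 6 they were 212, 138, 189 and 2265, and without 1 pup from 145 to 617. Of the kinases, against 2 as reported, 0 were called with offsets 0 and 16, the 75th percentile, litter means, males, either slide alone and without mother 4 or 5 (2 or 3 at an unadjusted p under 0.05, and 1 on slide 1). There was 1 with the corrected intensity, the deposited matrix, the stricter filter (well above background on at least 8 arrays), outlier spots kept, the probe of highest signal, the slide as a term, trend and robust variances and without mother 3, 3 without mother 6, and 0 to 2 without 1 pup. Of the other genes of the relay, 2 as reported, 1 was called with offset 0, the corrected intensity under both scalings and without mother 4, 0 over litter means, in males, on either slide and without mother 5, 5 without sex, 6 without mother 6, and 2 to 3 without 1 pup. Of the probes of the kinases, 2 as reported, 0 were called with offsets 0 and 16, the corrected intensity under both scalings and without mother 4 or 5, 1 with trend and robust variances, 6 without mother 6, and 0 to 3 without 1 pup. With the slide as a term, 1 kinase was called between litters, Pik3ca.

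Pups of both groups share the numbers 5 to 9. Deviations of same-numbered pups had correlations of 0.115, 0.215, 0.017, -0.049 and 0.061. No CSD pup shares a mother with a VD pup, so the mothers cannot tell whether the numbers pair the samples. Correlations of differently numbered pups were not computed, and the reported fit did not pair pups by number. With the number as a replicate block in place of the mother, 697 genes were called, among them 2 of the 8 kinases and 3 other genes of the relay.

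Only 4 litters stand behind 16 pups, and a test over the litter means has little reach. The offset of 50 by its construction draws differences of dim probes toward 0.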
